A study of Mus musculus with 16 samples.

Results

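Kidneys of diabetic (DN) and control mice were compared at 12 weeks of age in 8 single-cell RNA libraries, which are 8 of the 16 libraries of the series. The members were all libraries whose titles name DN or control at 12 weeks, and libraries with the same sex and replicate number in the labels were set against each other as 4 pairs. Control mice were BTBR +/+ and DN mice were BTBR ob/ob, a strain without functional leptin (Lep) that becomes obese and hyperglycemic, with 2 females and 2 males in each group. Both genotypes also carried the Gt(ROSA)26Sor mT/mG fluorescent reporter and a podocyte-specific Cre, by the study's methods. Each library was made from both kidneys of 1 mouse after the papilla was taken off, a Percoll gradient had depleted the proximal tubule (PT), and a cold-active protease had released single cells. Of 85815 kept cells in the series, 42590 came from the 8 libraries, and 33954 of these fell into classes named from marker genes. RNA was counted as unique molecular identifiers (UMIs), which count captured molecules rather than reads.

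The question was which differences between DN and control kidneys were shared by several cell classes and which were particular to 1 class. A total of 14 classes could be tested, and each is written as X-like because its name rests on markers alone: podocyte-like, mesangial-like, glomerular endothelial (EC)-like, smooth muscle and renin-like, immune-like and mitotic cells, and the tubule classes PT-like, descending and ascending loop of Henle-like (dLOH-like, aLOH-like), distal convoluted tubule-like (DCT-like), connecting tubule-like (CNT-like), principal cell-like (PC-like) and type A and type B intercalated-like (IC-A-like, IC-B-like). As background, CNT cells and PCs make up the aldosterone- and vasopressin-sensitive end of the nephron, where sodium, potassium and water excretion are set, and CNT cells also recover calcium. Intercalated cells in the same segments secrete acid or base. Smooth muscle cells of the arterioles set glomerular blood flow, and the renin cells among them start the renin-angiotensin cascade. Bone morphogenetic proteins (BMPs) are secreted signals that keep tubule cells differentiated and switch on the Id genes, and secreted antagonists such as gremlin 1 (Grem1) bind them.

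Pairs of neighboring genes on chromosomes 1 and 2 carried the largest changes that were shared by PC-like, CNT-like and IC-B-like cells, so their promoters are printed first. Grem1 (chr2:113746164-113758646) and Scg5 (chr2:113776362-113829121), which encodes a chaperone of a prohormone convertase, lie on the minus strand of chromosome 2 with 17715 bases between them. D630023F18Rik (chr1:65105285-65123214), a gene model of unknown function, and Idh1 (chr1:65158616-65186500), which encodes the cytosolic isocitrate dehydrogenase that makes NADPH, lie on the minus strand of chromosome 1 with 35401 bases between them. Gene coordinates are of GRCm38 (mm10), the build of the files. Each line gives 250 bases before to 50 bases after a RefSeq transcription start (GRCm38.p6), read 5′ to 3′ on the minus strand, with GGGCGG and CCAAT in capitals on either strand. The windows are chr2:113758599-113758898 for Grem1, chr2:113829042-113829341 for Scg5, chr1:65123165-65123464 for D630023F18Rik and chr1:65186430-65186729 for the upstream start of Idh1.
Grem1: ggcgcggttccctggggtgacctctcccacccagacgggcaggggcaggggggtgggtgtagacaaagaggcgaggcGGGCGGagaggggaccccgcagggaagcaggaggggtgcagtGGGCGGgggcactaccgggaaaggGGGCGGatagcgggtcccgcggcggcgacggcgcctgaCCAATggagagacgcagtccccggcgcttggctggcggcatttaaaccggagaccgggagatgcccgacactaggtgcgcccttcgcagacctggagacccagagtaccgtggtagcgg
Scg5: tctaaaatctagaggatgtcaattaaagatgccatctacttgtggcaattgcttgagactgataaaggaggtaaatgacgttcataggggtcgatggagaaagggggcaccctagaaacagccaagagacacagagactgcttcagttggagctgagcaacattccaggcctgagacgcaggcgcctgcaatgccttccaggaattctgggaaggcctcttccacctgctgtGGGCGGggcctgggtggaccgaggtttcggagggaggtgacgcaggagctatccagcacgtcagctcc
D630023F18Rik: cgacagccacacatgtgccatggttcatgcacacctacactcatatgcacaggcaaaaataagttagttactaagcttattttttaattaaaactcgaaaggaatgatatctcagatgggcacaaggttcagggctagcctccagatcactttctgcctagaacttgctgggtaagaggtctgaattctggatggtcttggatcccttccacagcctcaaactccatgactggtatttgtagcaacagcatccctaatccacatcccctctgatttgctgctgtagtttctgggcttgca
Idh1: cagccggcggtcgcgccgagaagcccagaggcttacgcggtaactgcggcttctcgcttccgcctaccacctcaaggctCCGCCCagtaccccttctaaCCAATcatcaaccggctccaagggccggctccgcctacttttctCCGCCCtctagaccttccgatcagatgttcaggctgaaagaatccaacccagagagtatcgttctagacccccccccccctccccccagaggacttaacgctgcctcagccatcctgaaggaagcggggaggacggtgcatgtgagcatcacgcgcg
GGGCGG, the letters of a GC box, was found 3 times in the Grem1 window, 2 times in that of Idh1, 1 time in that of Scg5 and not in that of D630023F18Rik, and 35.7% of 32851 RefSeq promoter windows of this length held it. CCAAT was found 1 time each in the Grem1 and Idh1 windows, against 37.4% of all windows. TATAAA (13.6% of all windows), CACGTG (7.15%) and TGACTCA (5.20%) were in none of these 4 windows. A match is a description of letters and not of binding.

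The 8 libraries held 21321172 to 112860250 UMIs. The female libraries with replicate number 1 of both genotypes held at most 21728793, used a different barcode list from the other 6 and formed 1 pair. Any 2 of the 8 libraries shared 0 to 42 cell barcodes. Lep itself had 0 to 2 UMIs per library in the named classes, so its level checked no label. Counts were summed per library and class over 11 to 1667 cells. The shallowest sum, 37851 UMIs, was that of podocyte-like cells, which numbered 711 in control and 128 in DN libraries. In sums like these, a level scaled to total UMIs does not separate less RNA of a gene per cell from fewer cells that hold it. The median log2 change over all genes lay between -0.015 and 0.014 in every class.

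Summed over classes, 4355 gene-by-class changes passed an adjusted p of 0.05 in edgeR, which is 2597 higher in DN (1.94% of 134083 tests) and 1758 lower (1.31%). Mesangial-like cells had the most, with 719 genes higher (7.61% of 9450 tested) and 416 lower (4.4%). PC-like cells followed with 434 higher (3.72% of 11671) and 346 lower (2.96%), then CNT-like cells with 326 higher (3.04% of 10708) and 209 lower (1.95%) and smooth muscle and renin-like cells with 219 higher (2.71% of 8083) and 103 lower (1.27%). PT-like cells had 144 higher and 174 lower (1.18% and 1.43%), IC-A-like 143 and 134 (1.32% and 1.24%), IC-B-like 151 and 67 (1.31% and 0.582%), aLOH-like 105 and 76 (1.09% and 0.788%), glomerular EC-like 157 and 116 (1.68% and 1.24%) and podocyte-like 128 and 59 (1.75% and 0.807%). DCT-like cells had 37 and 24 (0.371% and 0.241%), dLOH-like 30 and 30 (0.349% each), immune-like 1 and 4 (0.0169% and 0.0676%) and mitotic cells 3 and 0 (0.0338% and 0.0%). In mitotic cells an unadjusted p under 0.05 was reached by 725 genes, and the count of DESeq2 calls was 44.

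These counts rest on the pair term, which compares each DN library with its own control. Without it the sum was 500, with 264 genes in mesangial-like, 84 in CNT-like, 45 in PC-like, 38 in PT-like, 28 in podocyte-like and 18 in smooth muscle and renin-like cells, at most 8 in every other class, and 493 of the 500 were also called with the same sign with the pairs. All 4353 paired calls that could be tested without the pair term had the same sign there. Both fits use the same libraries, so the sign could hardly differ and adds no support. Leaving out 1 pair of libraries gave sums of 3286 without female 1, 2656 without female 2, 2152 without male 1 and 2435 without male 2.

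**Figure D1:**
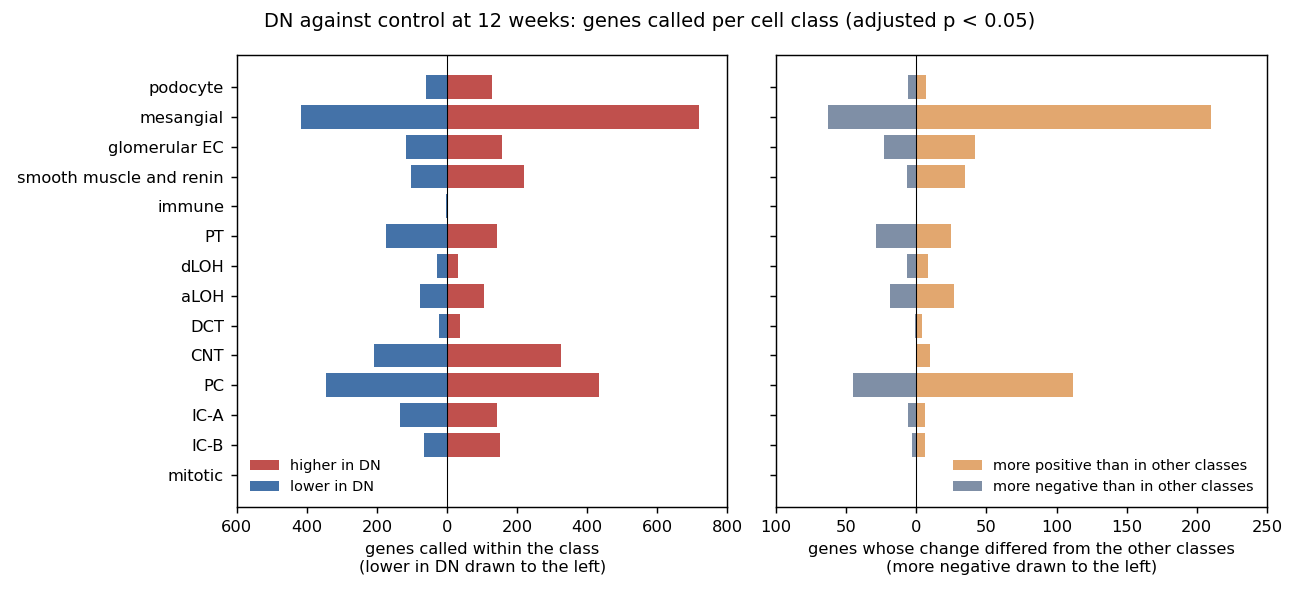
Number of genes called in each cell class at 12 weeks, drawn to the right for genes higher in DN and to the left for genes lower in DN (left panel), and the number whose change differed from the mean change of the other classes (right panel, limma). Class labels omit "-like". Mesangial (719 and 416) and PC (434 and 346) cells had the longest bars on the left, and 273 and 157 genes on the right. No gene passed the right-hand test in immune and mitotic cells.

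Of 14717 genes tested in any class, 2895 were called in at least 1, most of them (2069) in a single class and 485 in 2 classes. In at least 3 classes with 1 sign there were 285 genes (2.37% of those tested in at least 3), of which 193 were higher (1.61% of the 12013 genes tested in at least 3 classes) and 93 lower (0.774%), 1 gene being in both counts. A further reading used only classes where a gene stood at 0.2 or more of its level in its highest class, since free RNA and doublets carry transcripts of a strong class into others. By this reading 75 genes were higher and 23 lower in at least 3 classes. The effect averaged over classes with equal weight, tested with limma over libraries, was higher for 130 genes and lower for 79 (1.74% of 12013). The genes shared by at least 3 classes were 5 higher and 1 lower without the pair term, and 66 to 137 higher and 35 to 61 lower with a pair left out. The class averages were 7 higher and 3 lower without the pair term, and 41 to 94 higher and 12 to 50 lower with a pair left out.

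A call in a single class does not show that the class differed. Of the 2069 genes, 1672 could be compared with at least 3 other classes, and 238 of these differed from the mean of the others (limma, adjusted p under 0.05). They were 136 of 583 in mesangial-like, 46 of 346 in PC-like, 17 of 109 in PT-like, 14 of 77 in glomerular EC-like, 11 of 91 in smooth muscle and renin-like and 1 of 214 in CNT-like cells. Counting all genes, whether called in 1 class or more, the change differed from that of the other classes for 273 genes in mesangial-like (3.01%), 157 in PC-like (1.43%), 65 in glomerular EC-like (0.728%), 54 in PT-like (0.499%), 46 in aLOH-like (0.483%) and 42 in smooth muscle and renin-like cells (0.541%). It differed for 15 genes in dLOH-like (0.177%), 13 in podocyte-like (0.182%), 12 in IC-A-like (0.113%), 9 in IC-B-like (0.0819%) and 5 in DCT-like cells (0.0506%). In CNT-like cells it differed for 10 (0.0946%), all of them more positive. Without female 1, female 2 or male 2 the CNT-like count was 0 (893 genes at an unadjusted p under 0.05 with all pairs) and without male 1 it was 8, so the CNT-like differences given below need each of those 3 pairs. With a pair left out the count was 58 to 119 in PC-like, 13 to 27 in smooth muscle and renin-like, 116 to 187 in mesangial-like, 18 to 67 in glomerular EC-like, 1 to 11 in PT-like and 4 to 16 in aLOH-like cells.

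Sat1, which encodes the enzyme that starts the breakdown of the polyamines spermine and spermidine, was called higher in 11 of 14 classes, the most of any gene, and in 4 of the 7 where it stood above the level floor of 0.2. Its CPM (UMI counts scaled to the total of a class sum) in PC-like cells, given here and below for control females 1 and 2 and males 1 and 2 and then for DN in the same order, was 179, 107, 115 and 102 against 310, 199, 283 and 203. Control female 1 stood above the other controls, and no DN library fell to its level. The change was 1.00 ± 0.10 (log2, ± SE throughout), from 126 ± 35.9 to 248 ± 56.1 CPM (mean ± SD, n = 4; adjusted p 2.2e-05). In aLOH-like cells Sat1 went from 195, 139, 156 and 128 to 351, 335, 348 and 295 CPM, again without overlap (1.13 ± 0.14, adjusted p 0.00015). In PT-like cells, where it was at 326 ± 51.7 CPM in controls, the change of 0.15 ± 0.12 was not called and was below that of the other classes (limma, adjusted p 0.0300). Averaged over classes Sat1 rose by 0.76 ± 0.08 (limma, adjusted p 0.0023).

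Myof, for a protein of plasma membrane repair, and Csrp1, for a LIM protein of the actin cytoskeleton, were each higher in 8 classes, 2 of them above the floor. Myof stood at 14.7, 14.2, 16.4 and 15.9 CPM in control and 46.4, 65.8, 65.6 and 56.9 CPM in DN CNT-like cells (1.97 ± 0.15, adjusted p 9.6e-08). Csrp1 stood at 22.6, 18.1, 14 and 17.9 CPM in control and 59.2, 86.6, 63.4 and 59.7 CPM in DN CNT-like cells (1.97 ± 0.21, adjusted p 7.7e-06). For both genes every DN library was above every control, and for Csrp1 the rise was larger than in the other classes (difference 1.43 ± 0.22, limma, adjusted p 0.0482). Anxa3, for a membrane-binding annexin, was higher in 6 classes, 3 of them above the floor, among them smooth muscle and renin-like cells, with 72.6, 74.1, 80.4 and 72.3 CPM in control and 184, 238, 199 and 186 CPM in DN (1.44 ± 0.17, adjusted p 9.4e-07).

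Ldha, for lactate dehydrogenase A, was higher in 6 classes, and it passed the level floor in all 6. In PC-like cells it stood at 369, 354, 361 and 286 CPM in control and at 965, 546, 947 and 488 CPM in DN, where both libraries with replicate number 1 were high (1.04 ± 0.20, adjusted p 0.0053). Slc38a2, for a neutral amino acid transporter, was higher in 7 classes, in 6 of them above the floor, with a change of 1.05 ± 0.15 in glomerular EC-like cells (from 139 ± 58.2 to 274 ± 89.9 CPM, adjusted p 0.00031, with overlap).

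Lcn2, for the injury marker lipocalin 2, was higher in 5 of 7 classes tested, of which PC-like cells alone were above the floor. It was at 80, 110, 161 and 112 CPM in control and 440, 416, 552 and 374 CPM in DN PC-like cells, without overlap (1.95 ± 0.12, adjusted p 1.7e-07). In dLOH-like cells, from sums of 25 to 150 cells, it rose by 3.70 ± 0.41 (adjusted p 6.0e-05). Sult1a1, for a sulfotransferase, and the tetraspanin gene Tspan33 were higher in 6 classes each (5 and 3 above the floor), Tspan33 from 17, 24.1, 27.7 and 23.9 to 37.1, 48.9, 66.2 and 51 CPM in PC-like cells (1.13 ± 0.13, adjusted p 6.6e-05). Dusp1, for a MAP kinase phosphatase that is quick to respond to tissue handling, was also higher in 6, 3 of them above the floor. In podocyte-like cells it was at 77.5, 59.3, 45.6 and 29.7 CPM in control and at 0, 104, 362 and 129 CPM in DN, so its call there (2.07 ± 0.29, adjusted p 6.3e-06) came with an overlap of the groups and a DN sum of 11 cells without a UMI.

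Without the pair term, the calls of Sat1 in PC-like, Myof and Csrp1 in CNT-like, Anxa3 in smooth muscle and renin-like, Tspan33 and Lcn2 in PC-like and Lcn2 in dLOH-like cells held. Those of Ldha in PC-like, Slc38a2 in glomerular EC-like, Sat1 in aLOH-like and Dusp1 in podocyte-like cells did not (adjusted p up to 0.928 over the alternatives).

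Several of the genes called lower in the most classes were the strong genes of 1 class at trace levels elsewhere. Kap, an androgen-induced PT gene in mice, was lower in 11 classes. It was at 133, 90.1, 59579 and 49006 CPM in control and 46.2, 74.2, 20226 and 19302 CPM in DN PT-like cells, so the sexes differed far more than the genotypes, and its change there was not called (-1.18 ± 0.45, adjusted p 0.223). Every class in which it was called lay below 0.2 of the PT-like level. In CNT-like cells, for example, Kap fell from 34, 46.5, 381 and 564 to 1.29, 16.8, 51.9 and 266 CPM (-1.87 ± 0.33, adjusted p 0.0020), with overlap. Fxyd4, for a Na,K-ATPase regulator of the collecting duct, was lower in 10 classes and Hsd11b2, for the enzyme that keeps corticosterone off the mineralocorticoid receptor, in 9, but above the floor in 1 and 2. In PC-like cells Fxyd4 fell by 0.49 on the log2 scale, from 6219 ± 1539 to 4377 ± 745 CPM (adjusted p 0.0082). In smooth muscle and renin-like cells, which are not known to use it, it fell from 80.6, 35.6, 28.7 and 111 to 11.9, 14.8, 8.27 and 13.9 CPM (-2.37 ± 0.30, adjusted p 1.9e-06). Hsd11b2 in CNT-like cells went from 3056, 3355, 3242 and 2836 to 2286, 2303, 1807 and 2324 CPM, without overlap (-0.52 ± 0.12, adjusted p 0.0101).

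Markers of other cells moved with these genes. The summed CPM of 12 PT markers was lower in DN in most classes outside the PT, in at least 3 of 4 pairs in all classes except dLOH-like and mitotic cells. In CNT-like cells it ranged from 99.7 to 168 in control and from 46.4 to 118 in DN, in smooth muscle and renin-like cells from 167 to 329 and from 53.8 to 243, and in mesangial-like cells from 171 to 362 and from 69.1 to 226. The sum of 9 PC markers in smooth muscle and renin-like cells ranged from 76.6 to 361 CPM in control and from 49.6 to 148 in DN and was lower in all 4 pairs. Fxyd4 is itself among these markers, as is Aqp2. PT markers were lower in PT-like cells as well, at 13005 to 14879 against 10375 to 11741 CPM. The part of free RNA in the shared lower genes was not tested. Red blood cell markers, 5 genes, reached 4599 and 25740 CPM in the control male libraries of glomerular EC-like cells and at most 135 CPM in DN. The globin genes Hba-a2 and Hbb-bs were also called lower in immune-like cells.

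**Figure D2:**
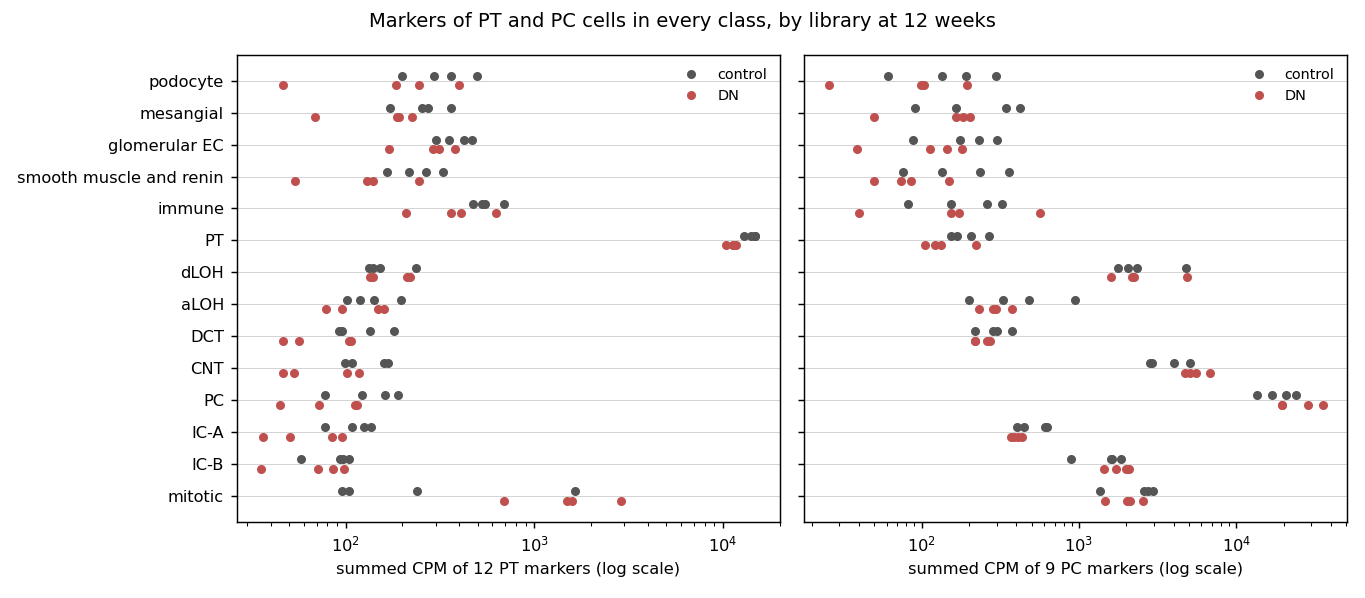
Summed CPM (log axis) of 12 PT markers (left) and 9 PC markers (right) in every class, 1 point per 12-week library, gray for control and red for DN. Outside the PT the PT sum lay mostly to the left in DN (99.7 to 168 against 46.4 to 118 CPM in CNT), whereas the PC sum in PC and CNT cells was higher in DN in all 4 pairs. The PC markers include Aqp2 and Aqp3, which were called higher in both classes.

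Nr1d1, which encodes the circadian repressor REV-ERB alpha, was lower in 7 classes, 6 of them above the floor. In PC-like cells it stood at 86.5, 75.7, 101 and 88.4 CPM in control and at 48.5, 40.4, 22.2 and 28.9 CPM in DN, without overlap (-1.40 ± 0.31, adjusted p 0.0125). Dbp, a clock output gene, was lower in 5 classes, with a change of -1.82 ± 0.47 in PC-like cells (from 147 ± 45.5 to 42.3 ± 19.7 CPM, adjusted p 0.0276). Of the 19 genes of the clock list, 18 gene-by-class tests of 203 were lower (8.87%, against 1.31% of all tests) and 2 higher. The mitochondrial complex I gene mt-Nd4l was lower in 7 classes, but the other 11 genes of the mitochondrial genome gave 6 calls in all, in mt-Atp8 and mt-Nd3. Fras1, for a basement membrane protein, was lower in 6 classes, 2 of them above the floor. In PC-like cells Fras1 went from 126, 124, 118 and 136 to 59.4, 52.9, 48.7 and 77.2 CPM (-1.10 ± 0.11, adjusted p 2.2e-05). The transcript 1110019B22Rik was lower in 6 of 8 classes tested, 3 of them above the floor. In CNT-like cells it fell by 1.62 on the log2 scale, from 131 ± 42.1 to 42.5 ± 14.6 CPM. Tmem52b was lower in 8 classes and the PT genes Keg1 and Miox in 7 each, but above the floor each of the 3 was lower in 1 class.

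Npy, for neuropeptide Y, was lower in 6 classes, none of them above the level floor, and was not called in its highest class. In PC-like cells Npy stood at 1448, 447, 1207 and 996 CPM in control and at 306, 128, 97.9 and 217 CPM in DN (-2.45 ± 0.23, adjusted p 6.4e-06), and all DN libraries were below all controls. In dLOH-like cells, where Npy was highest, it stood at 6692, 4287, 4065 and 5571 CPM in control and at 9753, 1963, 3948 and 5091 CPM in DN, with full overlap (-0.17 ± 0.19, adjusted p 0.880). The change in dLOH-like cells differed from that of the other classes by 1.69 ± 0.19 (limma, adjusted p 0.0028). Id4, a BMP-induced inhibitor of DNA binding, was lower in 6 classes, 2 of them above the floor. It fell both in dLOH-like cells, its highest class (-0.99 ± 0.19, adjusted p 0.0138), and in PC-like cells (-1.38 ± 0.21, adjusted p 0.00097).

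Without the pair term, the calls of Fras1 in PC-like, Npy in CNT-like and Fxyd4 in smooth muscle and renin-like cells held, and those of Kap, Hsd11b2 and 1110019B22Rik in CNT-like and of Fxyd4, Nr1d1, Id4 and Npy in PC-like cells did not. Id4 in dLOH-like cells was lost in 4 of 12 alternatives, this one included (adjusted p up to 0.566).

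**Figure D3:**
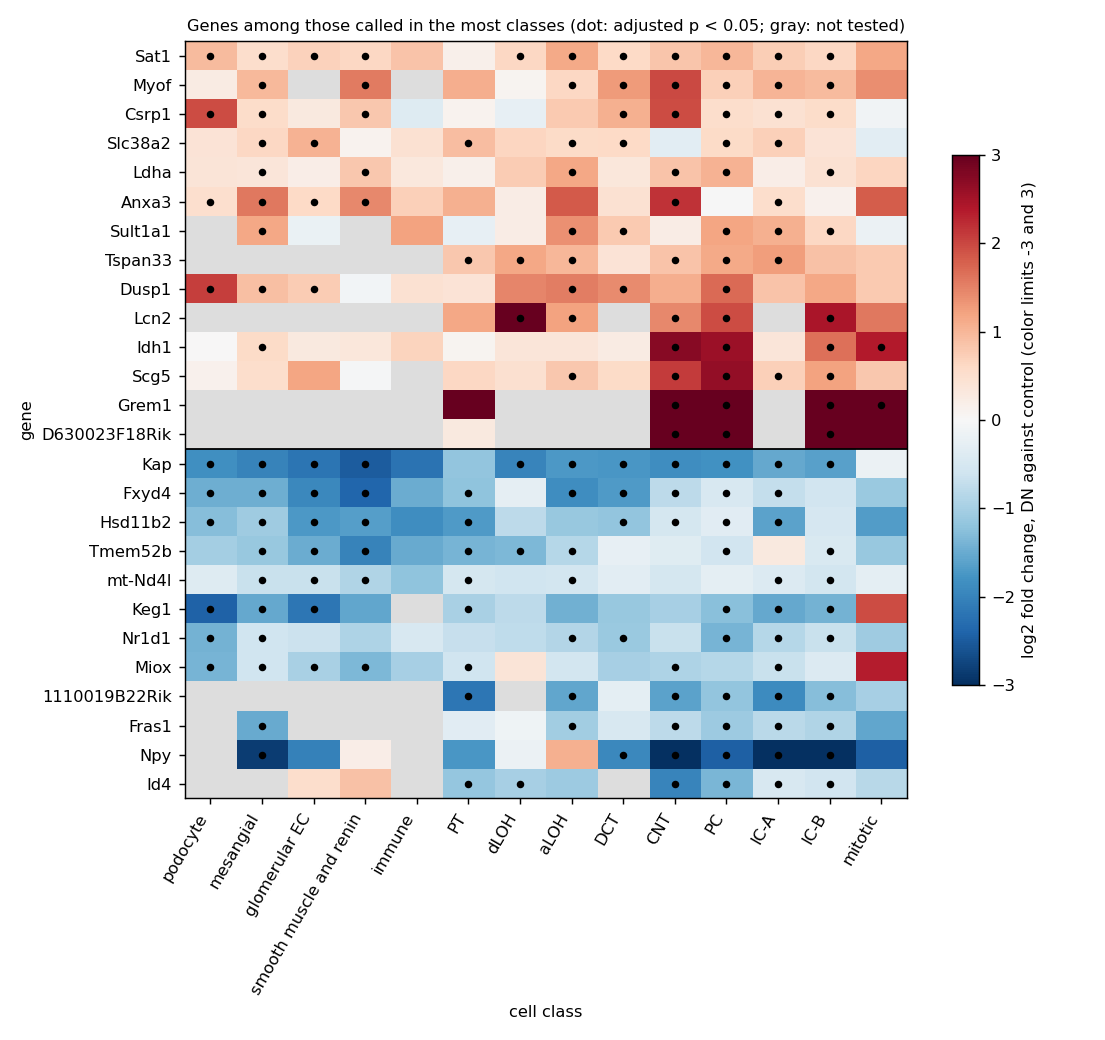
Log2 change in DN in every class (columns, labels without "-like") for genes among those called in the most classes and for Scg5, Grem1 and D630023F18Rik (rows), with the higher genes above the line and the lower genes below. A dot marks an adjusted p under 0.05, gray a class where the gene was too low to test, and colors end at -3 and 3. Sat1 has dots in 11 classes, and the Grem1 and D630023F18Rik rows are dark in PC, CNT and IC-B.

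The largest increases of PC-like cells were those of the neighboring genes printed at the start. Grem1 was at 0, 3.90, 5.83 and 10.3 CPM in control and at 304, 442, 370 and 452 CPM in DN PC-like cells. In CNT-like cells it was at 0, 1.85, 5.61 and 1.89 CPM against 207, 179, 133 and 228 CPM. In IC-B-like cells it was at 0, 0.380, 0.471 and 0.154 CPM against 50.7, 46.9, 32.3 and 48.7 CPM. Controls were near 0 in all 3 classes, from 160, 50 and 12 UMIs in all, and DN libraries had 5747, 2439 and 948 UMIs. The changes were 6.10 ± 0.49 in PC-like, 6.05 ± 0.55 in CNT-like and 7.06 ± 0.53 in IC-B-like cells (adjusted p 1.6e-06, 1.3e-06 and 5.5e-07). With so few control UMIs the size of these folds is uncertain, whereas the DN levels are not. Grem1 was also called in mitotic cells (6.14, adjusted p 0.0353) and not in PT-like cells (6.76, adjusted p 0.0538), and its change in PC-like, CNT-like and IC-B-like cells did not pass the test against the other classes it was measured in (limma, adjusted p 0.0856, 0.254 and 0.265). The part of free RNA or doublets in the lower IC-B-like levels was not tested.

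Scg5 was at 199, 176, 169 and 137 CPM in control and at 1327, 809, 1672 and 686 CPM in DN PC-like cells. In CNT-like cells it was at 195, 132, 171 and 147 CPM against 732, 694, 784 and 528 CPM. No DN library overlapped a control in either class, and DN female 1 and male 1 had the highest PC-like levels. Scg5 rose by 2.64 ± 0.21 in PC-like and 2.10 ± 0.15 in CNT-like cells (adjusted p 1.7e-06 and 9.3e-08), more than in the other classes in both (differences 1.88 ± 0.14 and 1.27 ± 0.13, limma, adjusted p 9.4e-05 and 0.0062). IC-B-like cells already held 451 ± 171 CPM in controls and rose by 1.22 ± 0.16 (adjusted p 0.00039), with overlap between DN and control.

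On chromosome 1, D630023F18Rik was at 3, 5.57, 2.76 and 6.27 CPM in control and at 190, 194, 204 and 198 CPM in DN PC-like cells, so the DN libraries differed from each other by far less than from the controls. In CNT-like cells it was at 4.53, 1.85, 0.647 and 2.15 CPM against 131, 116, 62.9 and 84.4 CPM. It rose by 5.45 ± 0.32 and 5.61 ± 0.34 (adjusted p 1.4e-07 and 6.1e-09) and by 4.36 ± 0.31 in IC-B-like cells. The gene model Gm28845 overlaps it and shares its transcript end at 99.7% identity, so counting may have split their reads. Idh1 was at 71, 83.3, 67.1 and 77 CPM in control and at 469, 482, 408 and 418 CPM in DN PC-like cells. In CNT-like cells it was at 54.3, 43.2, 32.8 and 29.9 CPM against 278, 325, 171 and 250 CPM, and in IC-B-like cells at 21.6, 22.2, 20.5 and 22.6 CPM against 86.2, 62.5, 67.5 and 69.3 CPM. DN and control did not overlap in these 3 classes. Idh1 rose by 2.57 ± 0.16, 2.73 ± 0.21 and 1.66 ± 0.17 (adjusted p 1.7e-07, 1.0e-07 and 4.1e-05), and in PC-like and CNT-like cells more than in the other classes (differences 1.79 ± 0.15 and 1.89 ± 0.19, limma, adjusted p 9.4e-05 and 0.0062). In PT-like cells, which had the highest level of Idh1, it was not called.

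Most other genes near these pairs did not follow them. Within 500 kb of Grem1 and Scg5, 6 genes were tested in PC-like cells, and besides the pair only Arhgap11a was called higher (1.20), whereas in CNT-like and IC-B-like cells it was not called (-0.06 and 0.09). Fmn1, Aqr and Zfp770 changed by 0.37, 0.02 and 0.04 in PC-like cells and were not called. Near D630023F18Rik and Idh1, Cryga, a lens crystallin gene, was called higher in PC-like cells (4.63), and Pikfyve (-0.12), Plekhm3 (-0.13) and Fzd5 (-0.74) were not called. All 4 genes of the pairs were called in each of the 3 main clusters inside the PC-like class and in both clusters inside the CNT-like class when these were fitted alone. For Grem1 these changes were 5.94, 7.31 and 6.50 in the PC-like clusters and 5.87 and 5.30 in the CNT-like ones. Without the pair term all of the calls of these genes named here held in PC-like and CNT-like cells, while Scg5 and Idh1 were lost in IC-B-like cells.

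**Figure D4:**
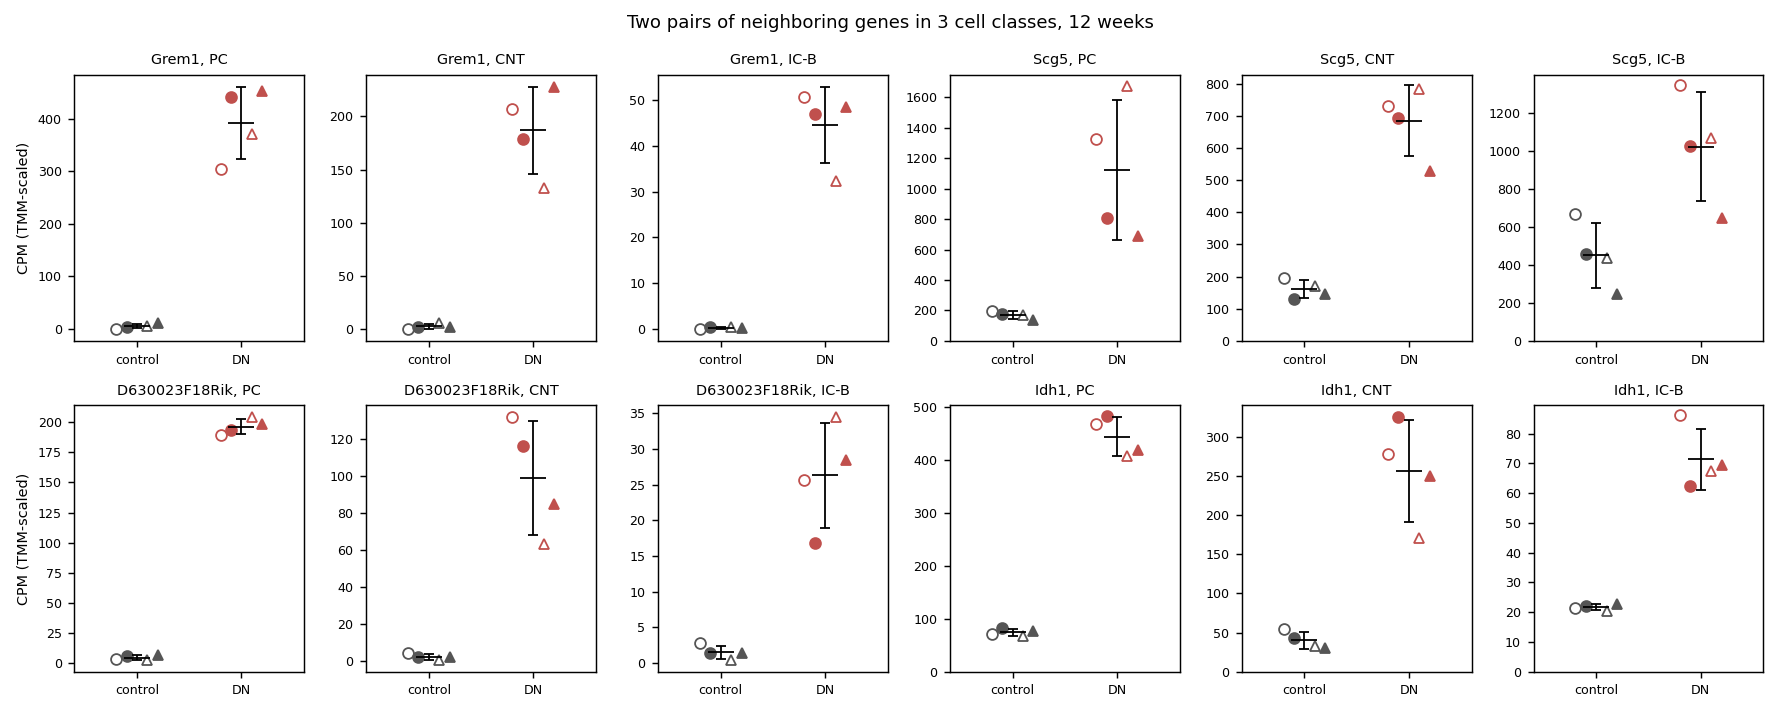
CPM of Grem1, Scg5, D630023F18Rik and Idh1 in PC, CNT and IC-B cells of each 12-week library, with circles for females, triangles for males, open symbols for replicate 1 and filled symbols for replicate 2. Bars are the mean and SD of 4 libraries. The 4 DN libraries lay above all control libraries in every panel except Scg5 in IC-B.

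PC-like cells had the most genes outside the glomerulus whose change differed from the other classes. Of the 157, 112 were more positive and 45 more negative. Rgs6, for a regulator of G protein signaling, went from 23.5, 26.7, 25.9 and 32.7 to 58.3, 64.1, 62.7 and 64.2 CPM (1.19 ± 0.10, adjusted p 4.0e-06; difference from other classes 1.38 ± 0.12, limma, adjusted p 9.4e-05). Angpt1, for the TIE2 ligand angiopoietin 1, went from 14, 39.5, 29.1 and 31.6 to 87.2, 109, 93.4 and 145 CPM (1.89 ± 0.17, adjusted p 5.5e-06; difference 1.88 ± 0.17). For both genes all 4 DN libraries were above all controls, and PC-like cells were their highest class. Spp1, for osteopontin, went from 237, 260, 292 and 152 to 1292, 683, 1481 and 493 CPM (1.97 ± 0.15, adjusted p 1.1e-06; difference 1.51 ± 0.14). Spink8, for a serine protease inhibitor, went from 402, 291, 267 and 207 to 2126, 958, 1349 and 738 CPM (2.07 ± 0.21, adjusted p 1.6e-05; difference 1.97 ± 0.18). Spp1 and Spink8 were highest in other classes, dLOH-like and IC-B-like, where Spp1 also rose (1.04 ± 0.20 in dLOH-like cells) and Spink8 rose by 0.44 ± 0.10 in IC-B-like cells. Spink8 is itself 1 of 7 IC-B markers, whose sum in PC-like cells was 260 to 444 CPM in control and 769 to 2171 CPM in DN.

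The PC-like genes that fell more than elsewhere were of mixed kinds. Prss23, for a secreted protease, went from 311, 202, 224 and 188 to 235, 122, 139 and 129 CPM, lower in all 4 pairs although the groups overlapped (-0.59 ± 0.08, adjusted p 0.00044). Kctd12, for an auxiliary subunit of GABA-B receptors, went from 57, 43, 38.9 and 48.1 to 24.5, 18.8, 14.5 and 27.7 CPM (-1.13 ± 0.14, adjusted p 0.00015). Tinagl1, for a matricellular protein, fell by 1.05 and Gstm1, for a glutathione transferase, by 0.64 on the log2 scale, both without overlap (adjusted p 3.4e-05 and 0.0015). B4galnt1, for a ganglioside synthase, fell by 0.45 with overlap (adjusted p 0.0192). The differences of these 5 genes from the other classes had adjusted p of 9.4e-05 to 0.0032 (limma). Gstm1 shares transcript ends with Gm8834 and Gstm2-ps1, at 98.3% identity over the longest stretch.

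Fstl1, which encodes a secreted glycoprotein that binds BMPs, fell in some classes and rose in others. It was at 136, 116, 117 and 135 CPM in control and at 31.6, 39.4, 21.5 and 41.7 CPM in DN PC-like cells (-1.91 ± 0.14, adjusted p 6.0e-07). In mesangial-like cells, its highest class, it was at 242, 255, 187 and 208 CPM against 361, 474, 438 and 441 CPM (0.98 ± 0.11, adjusted p 6.2e-06). In glomerular EC-like cells it was at 81.5, 80.8, 92 and 98.5 CPM against 153, 189, 173 and 146 CPM (0.89 ± 0.13, adjusted p 0.00019). In none of these classes did DN and control overlap. Fstl1 was also lower in CNT-like and IC-B-like cells (-1.34 ± 0.33 and -1.44 ± 0.34) at low levels and higher in smooth muscle and renin-like cells (0.67 ± 0.15), and the changes in PC-like, mesangial-like, glomerular EC-like and the smooth muscle class each differed from the other classes (limma, adjusted p 0.00083 to 0.0148). Without the pair term the Fstl1 calls in PC-like and mesangial-like cells held, and that in glomerular EC-like cells did not. In PC-like cells the calls of Spink8, Spp1 and Kctd12 held as well, while those of Rgs6, Angpt1, Prss23, Tinagl1, Gstm1 and B4galnt1 did not (adjusted p 0.0962 to 0.908 at the highest over the alternatives).

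The transport genes of the distal nephron did not move as a block. Of 17 genes of vasopressin and water transport, Aqp2, the vasopressin-regulated water channel, and Aqp3, the basolateral one, were higher in PC-like, CNT-like and IC-B-like cells, and Aqp2 was lower in smooth muscle and renin-like cells. Aqp4, a further basolateral channel, was lower in CNT-like cells. The list gave 9 higher and 5 lower calls of 136 tests (6.62% and 3.68%, against 1.94% and 1.31% of all tests). Aqp2 was at 7313, 3954, 9390 and 5829 CPM in control and at 21993, 9391, 16925 and 9769 CPM in DN PC-like cells, where the lowest DN library was barely above the highest control (1.11 ± 0.15, adjusted p 0.00028). In CNT-like cells Aqp2 was at 1695, 640, 1281 and 747 CPM against 3147, 2428, 2366 and 2149 CPM (1.31 ± 0.21, adjusted p 0.00062). Aqp3 changed by 0.57 ± 0.10 and 1.12 ± 0.18 in these classes. In PC-like cells the prostaglandin receptor gene Ptger4 and the endothelin receptor gene Ednrb were lower. Above the floor were 1 of 3 higher calls of Aqp2, 2 of 3 of Aqp3 and none of the lower calls of Aqp2, Aqp4 and Ptger4. The sum of PC markers in CNT-like cells was higher in DN in every pair. It holds Aqp2 and Aqp3 themselves, and also Aqp4, which was lower in CNT-like cells. The sum is therefore no separate measure of PC-like RNA, whose part in the CNT-like calls was not tested. The 17 calcium and magnesium genes gave 16 lower and 8 higher calls of 160 tests (10.0% and 5.00%, against 1.31% and 1.94% of all tests). Trpv5, the apical calcium channel, and Calb1, a calcium buffer, were higher in CNT-like and PC-like cells, Trpv5 from 88.3, 123, 98 and 121 to 166, 261, 124 and 196 CPM in CNT-like cells (0.75 ± 0.12, adjusted p 0.00051). Trpv6 and Cldn16 were also higher in PC-like and Atp2b4 in CNT-like and mesangial-like cells. The lower calls were of S100g, for a further calcium buffer, in PC-like and 4 other classes, Kl and Egf in 5 and 4 classes, and Pth1r and Vdr in mesangial-like cells. Above the floor, 1 of these 16 lower calls was left, that of Egf. Of the higher calls, 1 of 2 each for Trpv5, Calb1 and Atp2b4 and that of Trpv6 stood above the floor. That of Cldn16 did not. The list of 23 aldosterone-sensitive sodium and potassium genes gave 38 lower calls of 254 tests (15.0%, against 1.31% of all tests) and 5 higher (1.97%, against 1.94%), and its median change was negative in all 14 classes (-1.0 to -0.02). In PC-like cells the 4 lower members were Scnn1a, a subunit of the epithelial sodium channel, Fxyd4, Kcnj10 and Hsd11b2. The genes Fxyd4 and Hsd11b2, whose trace levels fell outside their own segments, made up 19 of the 38, and 6 of the 38 stood above the level floor. The calls of Aqp2 and Trpv5 in PC-like and CNT-like cells did not hold without the pair term (adjusted p up to 0.360 over the alternatives).

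Of 26 genes of growth factor signaling, 18 of them tested in PC-like cells, the BMP antagonist gene Grem1 was higher in PC-like, CNT-like and IC-B-like cells, and a transforming growth factor beta gene was higher in each of the last 2 (Tgfb2 and Tgfb1). Over all classes the list gave 27 lower and 19 higher calls of 246 tests (10.98% and 7.72%, against 1.31% and 1.94% of all tests). The 6 lower members in PC-like cells, where 2.96% of all genes were lower, included Id1, Id2, Id3 and Smad7, which BMP signaling induces. Smad7 was called higher in mesangial-like and glomerular EC-like cells. Id1 was at 13, 7.05, 36.9 and 39.5 CPM in control and at 5.99, 1.42, 4.99 and 1.96 CPM in DN PC-like cells (-2.92 ± 0.35, adjusted p 8.2e-05), without overlap. In dLOH-like cells Id1 was at 358, 465, 803 and 536 CPM against 91.6, 136, 181 and 188 CPM, without overlap (-1.87 ± 0.20, adjusted p 6.0e-05), and Id2, Id3 and Smad7 were called lower there too. The PC-like call of Id1, which was highest in glomerular EC-like cells, lay below the level floor. Over all classes 2 of 5 lower calls of Id1 and 1 of 4 of Id3 stood above it, as did both lower calls of Id2 and of Smad7. Grem1 was too low to be tested in dLOH-like cells.

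In CNT-like cells, 10 genes changed more than in the other classes, 7 of which are among the named genes: Scg5, Idh1, D630023F18Rik, Krt18, Ly6e, Car15 and Csrp1. Krt18, for a keratin of simple epithelia, was at 109, 117, 108 and 105 CPM in control and at 336, 383, 389 and 290 CPM in DN (1.66 ± 0.15, adjusted p 1.3e-06; difference from other classes 1.48 ± 0.20, limma, adjusted p 0.0432). In PC-like cells, its highest class, Krt18 rose by 0.48 ± 0.10, from 334 ± 48.5 to 466 ± 57.7 CPM. Ly6e, for a lipid-anchored surface protein, rose by 0.40 ± 0.10 in CNT-like cells (adjusted p 0.0215) with overlap. Car15, for a carbonic anhydrase, was at 5.66, 0, 0.647 and 0.379 CPM in control and at 170, 9.31, 6.04 and 10.1 CPM in DN, so 1 DN library, female 1, carried most of its mean (4.69 ± 0.36, adjusted p 9.6e-08). Its control library was also the highest control, and the call held in all 11 alternatives that tested it. Car15 shares its transcript end with the overlapping model Gm20518 and was highest in IC-B-like cells. It was called higher in 2 classes, 1 of them above the level floor. Its UMIs over all libraries went from 11 in control to 238 in DN CNT-like cells and from 242 to 1602 in PC-like cells.

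Of 15 tubule injury genes tested in CNT-like cells, 8 were higher, where 3.04% of all genes tested were, and none lower (Krt18, Krt8, Krt19, Krt7, S100a10, S100a11, Anxa2 and Lcn2), with a median change of 0.63. Over all classes this list gave 50 higher calls of 190 tests (26.3%, against 1.94% of all tests) and 5 lower (2.63%, against 1.31%). In CNT-like cells the calls of Anxa2 and Lcn2 lay below the level floor. Krt18, Krt19, Krt7 and Lcn2 were highest in PC-like cells, and the sum of PC markers in CNT-like cells was higher in DN in every pair. That sum holds Aqp2 and Aqp3, which were called higher in CNT-like cells, and Aqp4, which was called lower. The part of PC-like RNA in these calls was not tested. Of 18 MRTF-SRF target genes, which answer to actin dynamics, 6 were higher (Cyr61, Myh9, Tpm4, Tpm1, Actb and Actg1). Of 21 immediate early genes, which respond to cell handling as well as to signals, 7 were higher. In the PC-like class, 6 of 15 tubule injury genes and 2 of 24 immediate early genes were higher, where 3.72% of all genes were, and 1 of the latter was lower. Without the pair term, the calls of Krt18 and Car15 in CNT-like cells held and that of Ly6e did not (adjusted p up to 0.817).

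The smooth muscle and renin-like class held 442 control and 298 DN cells in 2 clusters, with Ren1, Cnn1 and Akr1b7 among the leading genes of the first and Aspn, Rgs4 and Rgs5 among those of the second. The first made up 74.7% of the class in control and 55.7% in DN. Fitted alone, the first had 400 calls and the second, from sums of 16 to 45 cells, 10. Of the 42 genes whose change differed from the other classes, 35 were more positive. S100a4, for a calcium-binding protein of motile cells, was at 0, 23.7, 24.9 and 49.0 CPM in control and at 148, 501, 147 and 300 CPM in DN (3.26 ± 0.24, adjusted p 2.1e-11; difference 3.37 ± 0.38, limma, adjusted p 0.0038). S100a11 was at 185, 246, 182 and 254 CPM against 594, 593, 614 and 559 CPM (1.40 ± 0.14, adjusted p 1.6e-08). In both, DN lay clear of control, and their calls held without the pair term. S100a4 was highest in immune-like cells, and its call here lay below the level floor of 0.2. The part of free RNA or doublets in it was not tested.

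Ednrb, for the endothelin receptor B, was at 137, 200, 205 and 209 CPM in control and at 249, 496, 385 and 372 CPM in DN smooth muscle and renin-like cells (1.00 ± 0.14, adjusted p 1.6e-05; difference 1.5 ± 0.18, limma, adjusted p 0.0038), whereas it was lower in PC-like and glomerular EC-like cells. Igfbp7, for an insulin-like growth factor binding protein, was at 2895, 3468, 4171 and 2552 CPM against 4909, 6043, 7331 and 4596 CPM (0.81 ± 0.10, adjusted p 1.4e-06). Neither gene had overlapping groups. Cd151, for a tetraspanin that binds laminin-binding integrins, rose by 0.76 ± 0.13 and Ahnak, for a scaffold protein, by 0.87 ± 0.13 (adjusted p 0.00017 and 4.0e-05), Ahnak with overlap. Pcdh17, for a protocadherin, fell from 129, 75.6, 57.4 and 105 to 23.7, 29.6, 26.9 and 48.8 CPM (-1.28 ± 0.24, adjusted p 0.00060), and Errfi1, for an inhibitor of the EGF receptor, from 121, 144, 168 and 170 to 83.1, 78.8, 82.7 and 119 CPM (-0.74 ± 0.16, adjusted p 0.0044). In the first cluster alone S100a4, Ednrb and Igfbp7 rose by 3.81, 1.21 and 1.11, and in the second, where none was called, they changed by 0.65, 0.56 and 0.21. The difference between the clusters was not tested. The calls of Ednrb, Igfbp7, Cd151, Ahnak, Pcdh17 and Errfi1 were lost without the pair term. That of Pcdh17, which was highest in glomerular EC-like cells, also lay below the level floor.

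Ren1, for renin, was at 12218, 5541, 8270 and 5171 CPM in control and at 11296, 22874, 39525 and 11634 CPM in DN smooth muscle and renin-like cells. It was higher in 3 of 4 pairs, and control female 1 overlapped DN (1.37 ± 0.26, adjusted p 0.00089). Gja5, for the connexin of renin cells, was at 24.2, 13.3, 28.7 and 13.5 CPM against 41.6, 41.1, 105 and 31.9 CPM (1.55 ± 0.28, adjusted p 0.00060). Among 5 tested renin cell genes, these 2 were higher and Prkg2 lower, where 2.71% of all genes were higher and 1.27% lower. Gja5 was called higher in 2 classes and was highest in mesangial-like cells. Its call in smooth muscle and renin-like cells lay below the level floor. Ren1 was higher in mesangial-like cells too, from 11.3, 6.61, 4.31 and 5.83 to 53.8, 326, 247 and 36.5 CPM (5.03 ± 1.01, adjusted p 0.0022), far below the level of the renin-like class. In PC-like cells Ren1 was called higher at trace level, from 1.5, 1.86, 0.530 and 0.492 to 1.09, 5.22, 3.75 and 1.47 CPM, with overlap (1.68 ± 0.42, adjusted p 0.0231). Without the pair term none of these calls held, and Ren1 in smooth muscle and renin-like cells was lost in 3 of 12 alternatives (adjusted p up to 0.221) and in PC-like cells in 4 of 11 (up to 0.460).

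Of 24 extracellular matrix genes tested in smooth muscle and renin-like cells 11 were higher, where 2.71% of all genes tested were, and 1, Ogn, was lower (median 0.60). Of 30 tested in mesangial-like cells 19 were higher, where 7.61% of all genes were, and none lower (median 1.12). Markers of other cells were higher in DN mesangial-like sums as well. The sum of 10 glomerular EC markers was 1617 ± 90.8 CPM in control and 1955 ± 171 in DN, and that of 10 arterial EC markers ranged from 505 to 681 and from 769 to 859 CPM, without overlap. Fibroblast markers, 6 genes, ranged from 102 to 342 and from 221 to 719 CPM, and each of these sums was higher in all 4 pairs. The glomerular EC list holds Lpl and the arterial EC list Gja5, both called higher in mesangial-like cells. The fibroblast list holds the matrix genes Col1a1, Lum and Dcn, which were highest in mesangial-like cells. These sums are therefore not separate from the changes of the class itself. The part of RNA of other cells in the list's changes was not tested. Col4a2, for a basement membrane collagen chain, went from 596, 1002, 841 and 954 to 1048, 1930, 2256 and 2276 CPM in mesangial-like cells, without overlap (1.13 ± 0.11, adjusted p 1.1e-06; difference from other classes 0.78 ± 0.10, limma, adjusted p 0.0013). In smooth muscle and renin-like cells it went from 161, 268, 253 and 282 to 131, 465, 428 and 409 CPM, higher in 3 of 4 pairs (0.61 ± 0.13, adjusted p 0.0042). MRTF-SRF targets were higher for 9 of 24 genes in smooth muscle and renin-like cells (median 0.36) and 14 of 22 in mesangial-like cells (median 0.50), against the same shares of all genes. Of smooth muscle contraction genes, 4 of 23 were higher in the first class, and in mesangial-like cells 10 of 21 were higher and 3, Des, Gucy1b1 and Gucy1a1, lower. Tagln, for an actin-binding protein of smooth muscle, changed by 0.41 ± 0.11 in smooth muscle and renin-like cells (from 8269 ± 2987 to 10976 ± 3984 CPM) and by 2.61 ± 0.30 in mesangial-like cells (from 16.8 ± 13.3 to 102 ± 36.9 CPM). The latter call lay below the level floor. Acta2, Lmod1, Tpm2 and Kcnmb1 were also highest in smooth muscle and renin-like cells, and none of their higher calls stood above the floor. The part of smooth muscle RNA in the mesangial-like calls was not tested. Genes of sterol and fatty acid synthesis gave 9 higher and 10 lower calls of 219 tests (4.11% and 4.57%, against 1.94% and 1.31% of all tests). In smooth muscle and renin-like cells 4 of 15 were higher, among them Idi1, Sqle and Fdps, and in CNT-like cells 3 of 17 were. In IC-B-like cells 6 of 18 were lower, where 0.582% of all genes were. Among them were Sqle, Idi1, Srebf2, Fdps and Lss, whereas Elovl6 was higher there. Sqle, for squalene epoxidase, fell from 16.5, 27.5, 23 and 20.5 to 9.90, 9.89, 12.1 and 8.85 CPM in IC-B-like cells (-1.16 ± 0.17, adjusted p 0.0013; difference from other classes -1.46 ± 0.21, limma, adjusted p 0.0178). The calls of Col4a2 in both classes, Sqle in IC-B-like and Tagln in smooth muscle and renin-like cells were lost without the pair term, and that of Tagln in mesangial-like cells held.

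**Figure D5:**
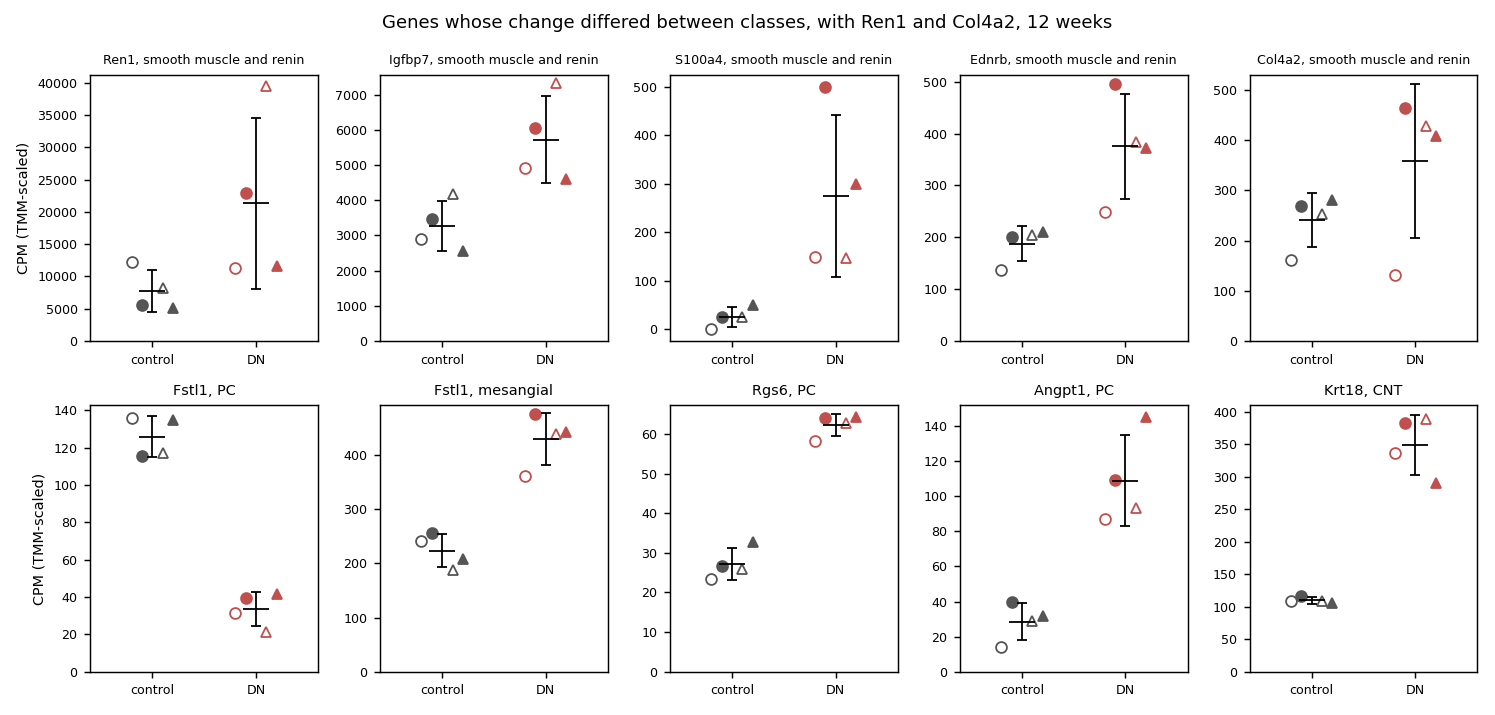
CPM of 9 genes in the class named in each panel title, with Fstl1 in 2 classes, for each 12-week library (circles female, triangles male, open replicate 1, filled replicate 2). Bars are the mean and SD of 4 libraries. Fstl1 was lower in DN in PC cells (126 to 33.5 CPM) and higher in mesangial cells (223 to 429 CPM). S100a4 in smooth muscle and renin cells stood below 0.2 of its level in immune cells. Ren1 and Col4a2, whose changes in smooth muscle and renin cells did not differ from those in other classes, have overlapping groups.

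Among the remaining named genes, some were called in several classes and others in 1. In mesangial-like cells F2r, for the thrombin receptor, was at 453, 469, 307 and 329 CPM in control and at 1561, 1786, 1427 and 1461 CPM in DN (2.03 ± 0.16, adjusted p 2.1e-07), and S100a10 rose by 1.30 ± 0.13, while Ehd4, for an endocytic protein, fell by 1.06 on the log2 scale. In aLOH-like cells Col5a2, for a fibrillar collagen chain, was at 131, 251, 70 and 163 CPM in control and at 10.7, 18.4, 7.90 and 19.3 CPM in DN (-3.37 ± 0.18, adjusted p 1.9e-09), and in DCT-like cells at 42.9, 32.6, 48.7 and 28 CPM against 8.5, 6.24, 7.28 and 5.52 CPM (-2.47 ± 0.17, adjusted p 1.9e-08). These calls of F2r, S100a10, Ehd4 and Col5a2 held in every alternative run. F2r was higher in 5 of 9 classes tested and S100a10 in 5 of 14, while Ehd4 was higher in 2 classes and Col5a2 in 1. In glomerular EC-like cells Socs3, for an inhibitor of cytokine signaling, rose by 1.54 ± 0.16. In podocyte-like cells Vamp5 rose by 1.28 ± 0.14 and Pde4b, for a cyclic AMP phosphodiesterase, fell by 1.06. In PT-like cells Eci1, for an enzyme of fatty acid oxidation, rose by 0.86 ± 0.10. In IC-A-like and IC-B-like cells Umod, a gene of the thick ascending limb, rose by 0.95 ± 0.21 and 1.06 ± 0.13 from 35.5 ± 17.6 and 469 ± 115 CPM, while in aLOH-like cells, its highest class, it fell from 14106 ± 2108 to 8776 ± 584 CPM without overlap (-0.68 ± 0.11, adjusted p 0.0035). In immune-like cells Chil3, for a chitinase-like protein of macrophages, rose from 9.01, 30.9, 236 and 108 to 372, 843, 688 and 508 CPM (2.77 ± 0.47, adjusted p 0.0405). The calls of Socs3, Pde4b, Eci1 and Chil3 and of Umod in IC-A-like and IC-B-like cells were lost without the pair term, that of Chil3 in 5 of 12 alternatives (adjusted p up to 0.466) and that of Umod in IC-A-like cells in 4 (up to 0.695).

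Of 14717 genes tested in any class, 2895 were called in at least 1 class, and 194 were called higher in at least 1 class and lower in another. Lpl, for lipoprotein lipase, was higher in mesangial-like cells, at 472, 488, 283 and 357 CPM against 602, 634, 629 and 819 CPM (0.80 ± 0.20, adjusted p 0.0106), and lower in 6 classes, for example in PT-like cells from 88.3, 124, 190 and 176 to 30.3, 21, 62.4 and 74.4 CPM (-1.73 ± 0.23, adjusted p 0.0025). DN and control overlapped in neither class, and both changes differed from the other classes (limma, adjusted p 0.0069 and 0.0271). Scn4b, for a sodium channel beta subunit, was higher in mesangial-like cells (2.35 ± 0.34, from 4.43 ± 2.17 to 21.9 ± 9.38 CPM) and lower in 6 classes, with -0.94 ± 0.13 in aLOH-like cells. Defb1, a beta defensin gene, was higher in IC-A-like cells (0.37 ± 0.10) and lower in 5 classes. Fxyd2, for the gamma subunit of the Na,K-ATPase, was higher in 2 classes and lower in 4. Fos was higher in 4 and lower in dLOH-like cells, and in podocyte-like cells its DN libraries ranged from 8.62 to 982 CPM. Above the level floor, lower calls numbered 2 for Lpl, 5 for Scn4b, 0 for Defb1 and 1 each for Fxyd2 and Fos. Higher calls above it numbered 1 each for Lpl, Defb1 and Fos, 2 for Fxyd2 and 0 for Scn4b. The calls of Lpl in PT-like and Scn4b in mesangial-like cells held in every alternative run. Those of Lpl in mesangial-like, Scn4b in aLOH-like, Defb1 in IC-A-like, Fxyd2 in CNT-like and aLOH-like and Fos in podocyte-like and dLOH-like cells were lost without the pair term, Defb1 in 5 of 12 alternatives and Fxyd2 in CNT-like and Fos in dLOH-like cells in 6 each (adjusted p up to 1.0).

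Other lists differed between classes in their counts. Genes induced by p53 were higher for 9 of 14 in PT-like cells (median 1.04), 4 of 12 in glomerular EC-like and 3 of 12 in IC-B-like cells, where 1.18%, 1.68% and 1.31% of all genes were. Cdkn1a, for the cell cycle inhibitor p21, was at 3.36, 0.757, 10.9 and 3.46 CPM in control and at 32.9, 41.3, 35.7 and 76.1 CPM in DN PT-like cells (3.39 ± 0.63, adjusted p 0.0169). The PT-like calls of Cdkn1a, Phlda3, Plk2 and Eda2r lay below the level floor, and those of Ccng1, Zmat3, Trp53inp1 and Aen above it. Immediate early genes were higher for 10 of 18 in podocyte-like cells (median 1.33), 8 of 22 in mesangial-like and 7 of 23 in glomerular EC-like cells, while smooth muscle and renin-like cells had 2 higher and 3 lower of 23. Of all genes, 1.75%, 7.61%, 1.68% and 2.71% were higher in these 4 classes in turn, and 1.27% were lower in the last. Over all classes, 1.94% of tests were higher and 1.31% lower. Genes of fatty acid use gave 30 higher and 13 lower calls of 247 tests (12.1% and 5.26%), glucocorticoid-responsive genes 25 and 5 of 179 (13.97% and 2.79%), hypoxia genes 14 and 3 of 157 (8.92% and 1.91%) and complement and acute phase genes 11 and 0 of 55 (20.0% higher). Calls were fewer for NRF2 genes, 7 and 6 of 177 (3.95% and 3.39%), and for interferon and MHC class I genes, 5 and 12 of 264 (1.89% and 4.55%). Heat shock genes had 4 and 7 of 165 (2.42% and 4.24%). The shares of insulin and FOXO genes, 6 and 4 of 196 (3.06% and 2.04%), glucose-responsive genes, 5 and 2 of 194 (2.58% and 1.03%), and unfolded protein response genes, 4 and 2 of 249 (1.61% and 0.803%), were near those of all tests. Smooth muscle contraction genes gave 16 higher and 4 lower calls of 144 tests (11.1% and 2.78%), 10 of the higher ones in mesangial-like cells. Nuclear oxidative phosphorylation genes gave 1 higher call and cytosolic ribosomal protein genes 3 of 420 tests each, and neither gave a lower one (0.238% and 0.714%, against 1.94% of all tests).

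The DN mice differ from controls by the ob mutation of Lep on chromosome 6, and genes close to it can be inherited together with it. Within 10 Mb of Lep, 4 of 74 genes tested in at least 3 classes were shared by at least 3 classes (5.41%), within 20 Mb 7 of 148 (4.73%), on the rest of the chromosome 17 of 471 (3.61%) and on all other chromosomes 261 of 11388 (2.29%). Shares of single chromosomes ranged from 0.971% to 3.88%, with chromosome 6 the highest. The shared genes within 20 Mb were Tspan33, which lies 0.639 Mb from Lep, Cald1 and Aoc1 among the higher ones and Cav1, Cttnbp2, Tmem213 and Fmc1 among the lower ones. Whether any of them follows a linked variant was not tested.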

How the data were processed

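Droplet libraries were aligned to mm10 and counted with Cell Ranger 3.0.2, per the labels, and the authors deposited a matrix of raw UMI counts per gene and barcode for each library. The kit version of each library and strand handling were not given in the sources used here. Barcodes with 200 to 7000 genes and at most 50% mitochondrial UMIs (20% outside tubules) were kept, lineage doublets (7682 in the series) were dropped, and cells were integrated, clustered (46 clusters, resolution 1.0) and named from marker lists, leaving 12 clusters unnamed. Sums of raw counts over the cells of a class in a library (at least 10 cells) were tested with the quasi-likelihood test of edgeR 4.0.16 over all 16 libraries of the series, with a term for each pair and Benjamini-Hochberg adjustment over all genes of a class. CPM uses the TMM-scaled total of the sum. The mean over classes and the difference of a class from the others were tested with limma 3.58.1 (prior count 2, R 4.3.3). A DESeq2 1.42.0 fit, no low-count filter, no pair term, 12-week libraries alone, other cell and prior settings and the omission of pairs were tried. The study's own methods tested single cells. Pairs share only sex, age and replicate number in the labels. All 54 correlations of same-numbered libraries' deviations from their group means were over 0.1 (0.118 to 0.667 at 12 weeks), and the pair term was kept. They are not independent, since all classes of a sex and age group come from the same libraries. Exchanging the replicate numbers of 1 genotype in a group would reverse their sign. Female libraries numbered 1 of both genotypes used another barcode list, and the correlations cannot tell pairing of mice from that difference. The fit was also run on simulated counts with known changes, and the outcome is not given here. Genes were named by rule: the 12 called higher and the 12 called lower in the most classes, up to 6 in each direction in smooth muscle and renin-like, PC-like and CNT-like cells (2 in others) with the smallest p against the other classes, up to 6 with opposite signs, up to 4 members of each list, and shared genes near Lep. Neighbors of the gene pairs were named for their position. The members and lists were chosen with earlier results of these data known. A podocyte marker and some further genes are not reported here, and arterial endothelial cells were too few to test. P-values of the tests with the pair term measure the spread of DN against control differences between pairs of mice, 1 library each, at both ages. Spread that the mice of a pair share is not in them.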

Additional observations from a re-analysis of the deposited data

Results flagged for a closer look

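Among 252 groups of 4 libraries of the named genes, 21 had 1 library that stood apart from the other 3 by Dixon's test, where chance flags about 1 in 20. In control female 1 these were Sat1 in PC (179 CPM) and CNT cells (178 CPM), Car15 in CNT cells (5.66 CPM) and Ednrb in smooth muscle and renin cells (137 CPM). In DN female 1 they were Prss23 in PC (235 CPM), Car15 in CNT (170 CPM), 1110019B22Rik in aLOH (94.6 CPM), Npy in CNT (2.58 CPM), Id4 in PC (58.3 CPM), Col4a2 in smooth muscle and renin (131 CPM) and Scn4b in mesangial cells (35.9 CPM). Both of these libraries are of the shallow pair with the other barcode list, whose part in these values was not tested. Control female 2 stood apart for Trpv5 in PC cells (6.31 CPM), and DN female 2 for Csrp1 in CNT (86.6 CPM) and Ehd4 in mesangial cells (140 CPM). DN male 1 stood apart for Hsd11b2 (1807 CPM), Tmem52b (1029 CPM) and Fxyd2 (2302 CPM) in CNT and Gja5 in smooth muscle and renin cells (105 CPM), and DN male 2 for Errfi1 in smooth muscle and renin (119 CPM), Kap in mesangial (726 CPM) and Lpl in mesangial cells (819 CPM).

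By the limma test of the difference itself, the change between DN and control differed from that of the other classes for 273 genes in mesangial, 157 in PC, 65 in glomerular EC, 54 in PT, 46 in aLOH, 42 in smooth muscle and renin, 15 in dLOH, 13 in podocyte, 12 in IC-A, 10 in CNT, 9 in IC-B and 5 in DCT cells.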

How the results depend on the processing

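No call of a named gene changed sign in any alternative, which was likely in advance, as the alternatives reuse most of the same libraries. Of 146 named calls, 45 held without the pair term and 40 in every alternative. Counts moved more, and the cause was not tested. Without the replicate block (the pair term), called genes numbered 84 in CNT, 45 in PC, 18 in smooth muscle and renin, 264 in mesangial, 38 in PT, 28 in podocyte, 8 in mitotic, 7 in dLOH, 4 in IC-B, 2 each in DCT and aLOH and 0 in IC-A, glomerular EC and immune cells (edgeR; 1331, 1216 and 330 genes were at an unadjusted p under 0.05 with the pairs, where DESeq2 called 137, 163 and 8), and the sum was 500. Shared genes were then 5 higher and 1 lower, with 0 near Lep, list calls 66 higher and 19 lower, and class averages 7 higher and 3 lower. Genes that differed from other classes numbered 49 in PC, 31 in PT, 24 in smooth muscle and renin, 16 in glomerular EC, 9 in dLOH, 3 in podocyte, 2 in IC-A, 1 in aLOH and 0 in DCT and IC-B. With the 12-week libraries alone, calls were 131 in DCT, 599 in PT, 284 in aLOH, 143 in dLOH, 455 in glomerular EC, 1 in immune and 62 in mitotic cells, shared lower genes 151, lower list calls 315 and class averages 211 and 147, and class differences 163 in CNT, 1 in DCT, 112 in IC-A, 51 in IC-B, 347 in PC, 166 in PT, 47 in dLOH and 0 in podocyte. DESeq2 called 27 in DCT, 137 in IC-A, 33 in dLOH, 163 in glomerular EC, 8 in immune, 676 in mesangial, 44 in mitotic, 100 in podocyte and 195 in smooth muscle and renin, with 4 shared near Lep. Without a low-count filter, calls were 814 in CNT, 199 in DCT, 492 in IC-B, 1225 in PC, 761 in PT, 440 in aLOH, 212 in dLOH, 460 in glomerular EC, 97 in immune and 340 in mitotic (sum 7395), shared genes 359 and 238, 12 near Lep, list calls 643 and 410, higher class averages 77, and class differences 17 in CNT, 1 in DCT, 5 in IC-A, 24 in PT, 7 in aLOH and 3 in dLOH. At resolution 1.5, where the larger CNT cluster stayed unnamed, calls were 66 in CNT and 9 in immune cells, and class differences 0 in CNT, 3 in DCT, 7 in IC-A and 31 in IC-B. With at least 30 cells per sum, class differences were 18 in CNT, 2 in dLOH and 108 in podocyte. Without doublet removal, calls were 110 in podocyte and 196 in smooth muscle and renin, and class differences 4 in IC-A, 15 in IC-B, 99 in glomerular EC, 0 in podocyte and 19 in smooth muscle and renin. A prior count of 0.5 gave 52 lower class averages and class differences of 2 in CNT, 3 in DCT, 7 in IC-A, 104 in PC, 28 in PT, 26 in aLOH, 4 in dLOH, 6 in podocyte and 20 in smooth muscle and renin. Sharing by at least 5 classes left 30 higher and 30 lower genes, and the level floor 75 and 23. Clusters fitted alone, a setting chosen after seeing the data, gave 486, 52 and 472 calls in PC, 276 and 84 in CNT (resolution 1.5) and 400 and 10 in smooth muscle and renin. Without the shallow pair of female 1, calls were 127 in IC-B, 499 in PC and 168 in glomerular EC, lower class averages 32 and class differences 135 in mesangial cells. With 1 pair left out, calls ranged from 228 to 428 in CNT, 291 to 524 in PC, 159 to 296 in smooth muscle and renin, 576 to 979 in mesangial, 58 to 192 in PT, 134 to 207 in IC-A, 78 to 169 in IC-B, 67 to 158 in aLOH, 13 to 42 in dLOH, 14 to 24 in DCT, 59 to 237 in glomerular EC, 114 to 162 in podocyte, 3 to 17 in immune and 0 to 1 in mitotic cells. The sum ranged from 2152 to 3286, shared genes from 66 to 137 higher and 35 to 61 lower, those near Lep from 2 to 6, list calls from 220 to 298 and 112 to 147, and class averages from 41 to 94 and 12 to 50. Class differences ranged from 0 to 8 in CNT, 58 to 119 in PC, 13 to 27 in smooth muscle and renin, 116 to 187 in mesangial, 1 to 11 in PT, 4 to 16 in aLOH, 1 to 8 in dLOH, 1 to 5 in DCT, 3 to 5 in IC-A, 1 to 5 in IC-B, 18 to 67 in glomerular EC and 0 to 109 in podocyte, the last being without female 1. The smallest sum, in podocyte cells, held 11 cells and 37851 UMIs.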
